A study of Mus musculus with 18 samples.

Results

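The p53 target genes described here are a list of 42 mouse genes: Trp53, the gene of the tumour suppressor p53 itself, and genes known as its transcriptional targets. They were taken from a list of symbols, and a gene was counted as measured when a row of the array table was annotated to its symbol alone. Of the 42 genes, 38 were measured, out of 19938 genes in all. Cdkn1a, the gene of the cell cycle inhibitor p21, lay on a row that also carries a second symbol, and it was not analysed here, nor were Trp53, Bax and Gdf15. RNA came from C2C12 cells, a mouse myoblast line that can be made to form myotubes, and was measured on 18 Affymetrix arrays of mouse genes that fall into 6 groups of 3. All cells had been depleted of their own TAF3 and carried a murine TAF3 transgene in its place. TAF3 is a subunit of the basal transcription factor TFIID, and its KK-TAF3 mutant no longer binds phosphoinositides. The genotypes were KK-TAF3 with sh-PIP4K2B, an shRNA against the phosphoinositide kinase PIP4K2B, WT-TAF3 with sh-PIP4K2B, and WT-TAF3 with the control shRNA shX. The labels of the last genotype name no shRNA, and shX is taken from the figures of the paper. Cells of each genotype were either exposed to 10 µM etoposide for 7 hours or differentiated for 2 days, a time the series' design text gives as 3 days. The arrays hold no untreated proliferating cells, so every etoposide value is set against differentiated cells, and the effects of the drug and of the missing differentiation cannot be told apart.

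Etoposide traps topoisomerase II on DNA and so leaves double-strand breaks. Breaks activate the kinase ATM, which phosphorylates p53 and the ligase MDM2 that holds it down, and stabilised p53 then binds paired half-sites near its target genes. The targets act in several ways: some halt the cell cycle, some lead to apoptosis through mitochondria or death receptors, some repair DNA or supply nucleotides, some answer metabolic stress, and a few, MDM2 first among them, restrain p53 again. Nuclear PI5P, the lipid that PIP4K2B consumes, has been linked to p53 through the PHD finger protein ING2.

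Single arrays of a group correlated with Pearson's r of 0.994 to 0.999 over all genes, and array medians lay between 7.25 and 7.46. The 3 arrays of WT-TAF3 sh-PIP4K2B cells after etoposide were the most spread. Signals are log2 values, so a difference of 1 is 2-fold in signal. In WT-TAF3 cells the shRNA changed Pip4k2b by -0.88 ± 0.1 after etoposide and by -1.14 ± 0.1 in differentiated cells (log2, SE). With sh-PIP4K2B, KK-TAF3 cells had more Pip4k2b than WT-TAF3 cells, by 0.17 ± 0.1 after etoposide and 0.31 ± 0.1 in differentiated cells. The adjusted p in limma was 0.411 and 0.255, so equal depletion in both was not shown. Taf3 changed by at most 0.17 in size between genotypes of the same treatment. Taf3 checks nothing about the rescue, because the row cannot tell the transgene and the remaining endogenous RNA apart. Myoblast markers were bright, with 1 of 8 below the median gene, while 4 of 5 fibroblast, 6 of 7 macrophage and leukocyte, 5 of 5 endothelial and 4 of 4 fat cell markers were below it.

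Etoposide-treated cells of every genotype had more of a common set of p53 target genes than differentiated cells. Sesn2, which restrains mTORC1, Dcxr, a carbonyl reductase, Btg2, an antiproliferative cofactor, Trp53inp1, a stress protein that promotes apoptosis, and the bypass polymerase gene Polk had the largest increases in WT-TAF3 shX cells. A gene was past the threshold at an adjusted p under 0.05 in limma, over all 19938 genes, with a change above 1.4-fold. In KK-TAF3 sh-PIP4K2B cells 17 of 38 genes rose and 2 fell, beside 3.52% and 4.81% of all genes. In WT-TAF3 sh-PIP4K2B cells 12 rose and 3 fell, beside 3.64% and 6.30%, and in WT-TAF3 shX cells 14 rose and 3 fell, beside 4.71% and 2.92%. The shares of the 38 genes that rose were 44.7%, 31.6% and 36.8% and those that fell 5.26%, 7.89% and 7.89%, so that rises stood further above the share of all genes than falls did in every genotype. The median change of the 38 genes was 0.42, 0.32 and 0.32 in the same order of genotypes, against 0.032, 0.066 and -0.052 over all genes. Every etoposide array lay above every differentiated array for 26 of 38 genes in KK-TAF3 sh-PIP4K2B cells, beside 21.4% of all genes, and below for 6, beside 19.0%. The counts were 24 above, beside 22.8%, and 7 below, beside 19.9%, in WT-TAF3 sh-PIP4K2B cells, and 28 above, beside 21.8%, and 4 below, beside 22.4%, in WT-TAF3 shX cells.

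The 10 genes past the threshold as higher in all 3 genotypes were Aen, Btg2, Ccng1, Dcxr, Gtse1, Mdm2, Polk, Psrc1, Sesn2 and Trp53inp1, and 18 genes were higher in at least 1. Sesn1 and Trp53i11 were lower in all 3, and Sulf2 in 2. The remaining 17 genes passed in no genotype, with log2 changes between -0.43 and 0.47. Among them, Ppm1d, Plk3, Tnfrsf10b and Abhd4 had an adjusted p under 0.05 in all 3 genotypes with changes that stayed below 1.4-fold. At an adjusted p under 0.05 without the fold limit, 23 were higher and 6 were lower in cells of KK-TAF3 sh-PIP4K2B, beside 12.8% and 12.6% of all genes. At that limit 24 were higher and 5 lower in WT-TAF3 sh-PIP4K2B cells, beside 18.7% and 16.0%, and 23 were higher and 4 lower in WT-TAF3 shX cells, beside 14.6% and 8.57%. The 12 genes of muscle differentiation were set against the threshold with the fold limit, in KK-TAF3 sh-PIP4K2B, WT-TAF3 sh-PIP4K2B and WT-TAF3 shX cells in that order. After etoposide 2, 9 and 6 of them were lower, beside 4.81%, 6.30% and 2.92% of all genes. Those higher numbered 0, 0 and 2, beside 3.52%, 3.64% and 4.71%. In bulk RNA, fewer cells of a type and less RNA per cell cannot be told apart.

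**Figure D1:**
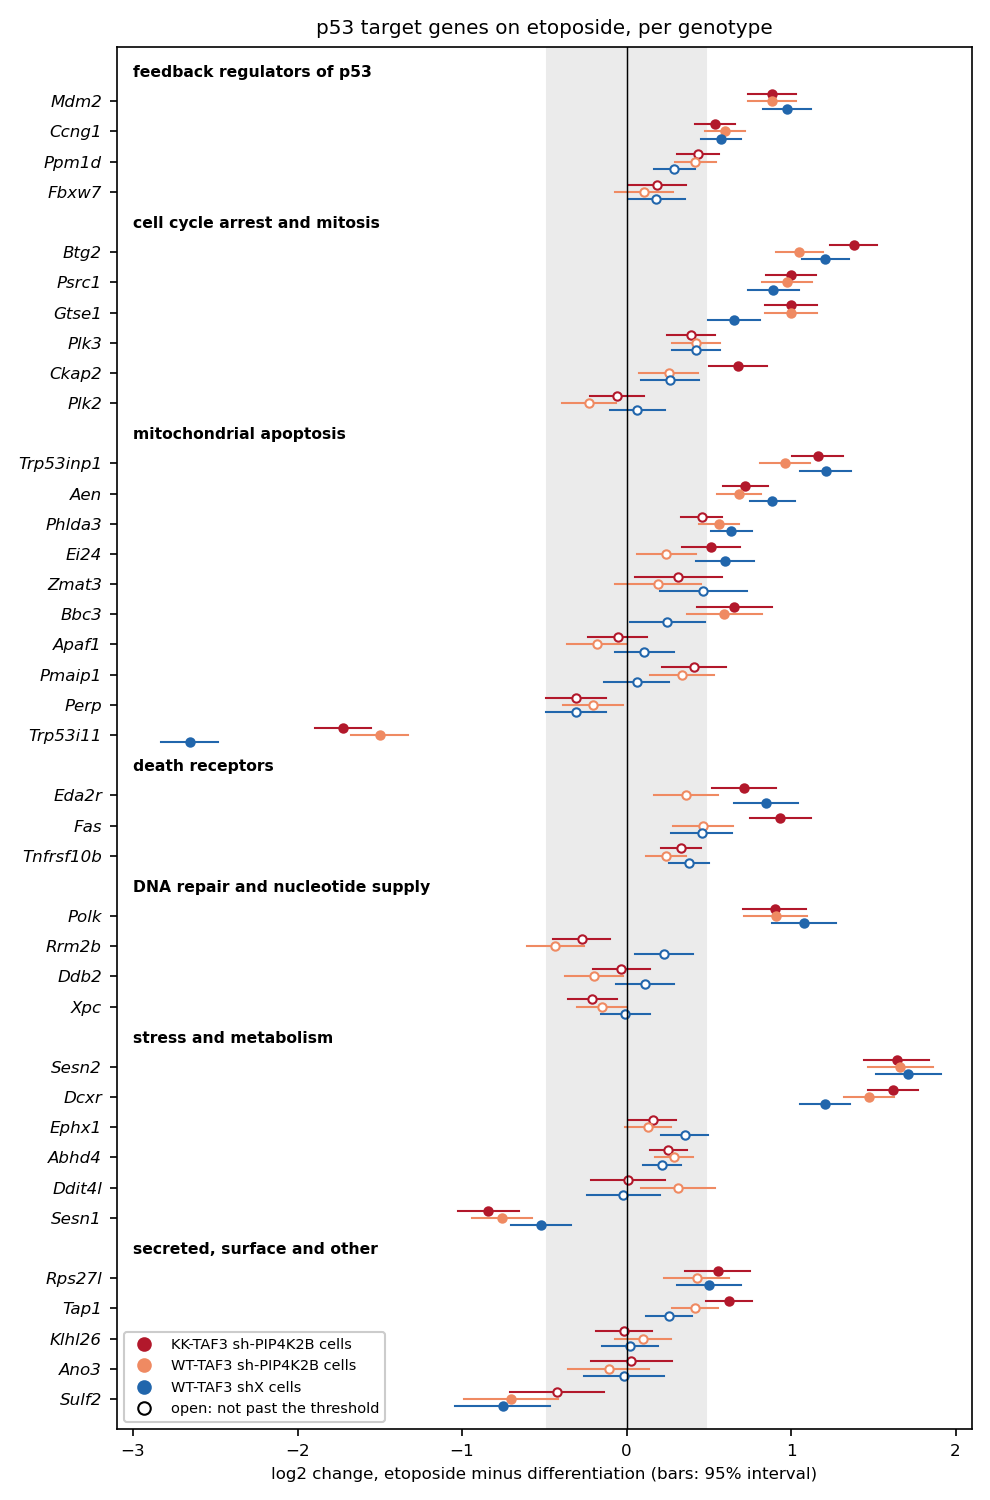
log2 change of each of the 38 measured p53 target genes, etoposide minus differentiation, with 95% intervals from limma, in KK-TAF3 sh-PIP4K2B, WT-TAF3 sh-PIP4K2B and WT-TAF3 shX cells (3 arrays a group), ordered by role. Filled points are past the threshold, and the grey band marks changes under 1.4-fold. Sesn2 lies between 1.64 and 1.71 in all 3 genotypes, and Trp53i11 between -2.66 and -1.50.

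The start regions of the genes were read for p53 half-sites. The genes were listed as known targets of p53, so these counts may not be independent of how they came to be listed. The windows run from 250 bases before to 50 bases after a transcript start (RefSeq, GRCm38.p6), and 30 of the 38 measured genes had 1 or more, 44 windows in all. The half-site was searched by the p53 consensus of 10 bases, whose core reads CNNG with A or T at both middle places and which is its own reverse complement, so that reading 1 strand covers both. An exact half-site stood in the windows of 12 of 30 genes (40.0%), against 2582 of 27025 genes with a window (9.55%). A gene counted when any of its windows held one, and the 27025 genes had 32851 windows. The listed genes thus had more windows per gene, and the shares were not corrected for it. Pairs of half-sites were counted with both cores intact, at most 2 mismatches in 20 bases and at most 13 bases between them. Such a pair stood in 4 of 30 genes (13.33%), against 667 of all genes (2.47%). Of the genes higher in all 3 genotypes, 5 of the 9 with a window held an exact half-site, compared with 4 of 13 among those higher in none. These are counts of letters in a window, not of bound sites. The 4 pairs are shown first, because a pair is the unit p53 binds, with the half-sites in capitals.
Ckap2: tgaAGACATGTCCTGACTTGTCAagc
Gtse1: cggGAGCAAGTTGGGGCTTGCCTctg
Rps27l: ggcGGGCTTGTTGAGACTTGTCCggg
Sesn1: tggGCGCTTGGCCttcAAGCTTGTTTttg
The Ckap2 pair lies at chr8:22186000-22186025 on the minus strand with 2 mismatches, and the Gtse1 pair at chr15:85859942-85859967 on the plus strand with 1. The Rps27l pair lies at chr9:66946293-66946318 on the plus strand with 1 mismatch, and the Sesn1 pair at chr10:41887250-41887278 on the plus strand with 2 mismatches and 3 bases between its half-sites. The first half-site bases lie at -203, -1, -117 and -186 from the transcript starts of Ckap2, Gtse1, Rps27l and Sesn1. Gtse1, Rps27l and Ckap2 rose in at least 1 genotype, whereas Sesn1 fell in all 3. The single exact half-sites of 5 genes that rose are shown next, again in capitals.
Mdm2: tagGAACTTGCCTagc
Ccng1: cccGGGCAAGCCTtgg
Aen: gccGGGCTTGTCCggg
Polk: cttGAACTAGCCTcaa
Ei24: cccGGGCATGCCCagt
They lie at chr10:117710932-117710947 for Mdm2, chr11:40755459-40755474 for Ccng1, chr7:78895934-78895949 for Aen, chr13:96519406-96519421 for Polk and chr9:36797332-36797347 for Ei24, on the plus strand for Aen and on the minus strand for the other 4. The windows of Sesn2, Btg2 and Dcxr, which had large increases, held no exact half-site.

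**Figure D2:**
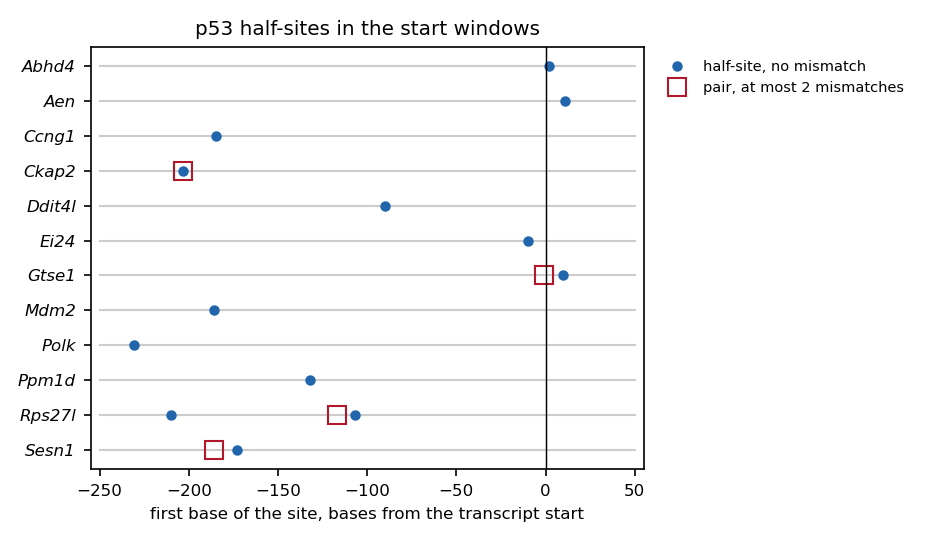
Position of each exact p53 half-site (points) and of each pair of half-sites (squares, at most 2 mismatches) in the start windows of the 12 genes that hold one, as bases from the transcript start on the x axis. The sites lie between -231 and 11, and those of Abhd4, Aen, Ei24 and Gtse1 lie nearest the start.

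Among the feedback regulators, Mdm2 and Ccng1 rose in all 3 genotypes. Mdm2 encodes the ubiquitin ligase that degrades p53. After etoposide its log2 signals were 12.49, 12.41 and 12.60 in KK-TAF3 sh-PIP4K2B cells, 12.51, 12.51 and 12.59 in WT-TAF3 sh-PIP4K2B cells and 12.28, 12.14 and 12.36 in WT-TAF3 shX cells. In differentiated cells they were 11.65, 11.57 and 11.62 in KK-TAF3 sh-PIP4K2B cells, 11.61, 11.68 and 11.67 in WT-TAF3 sh-PIP4K2B cells and 11.32, 11.23 and 11.31 in WT-TAF3 shX cells. The groups did not overlap in any genotype, and the WT-TAF3 shX arrays were the lowest of each treatment. The change was 0.88 (SE 0.069, adjusted p = 2.03e-08) in KK-TAF3 sh-PIP4K2B cells, 0.88 (SE 0.069, adjusted p = 1.75e-08) in WT-TAF3 sh-PIP4K2B cells and 0.97 (SE 0.069, adjusted p = 6.07e-09) in WT-TAF3 shX cells, that is 1.85-, 1.84- and 1.96-fold. Ccng1, cyclin G1, which brings phosphatase 2A to MDM2, rose too. Its signals were 13.48, 13.55 and 13.63 in KK-TAF3 sh-PIP4K2B cells, 13.61, 13.61 and 13.56 in WT-TAF3 sh-PIP4K2B cells and 13.51, 13.50 and 13.57 in WT-TAF3 shX cells after etoposide. They were 13.01, 13.01 and 13.03 in KK-TAF3 sh-PIP4K2B cells, 12.95, 13.01 and 13.03 in WT-TAF3 sh-PIP4K2B cells and 12.94, 12.93 and 12.97 in WT-TAF3 shX cells in differentiated cells. Every etoposide array lay above every differentiated one of its genotype. The change was 0.54 (SE 0.058, adjusted p = 1.26e-06), 0.60 (SE 0.058, adjusted p = 3.06e-07) and 0.57 (SE 0.058, adjusted p = 5.84e-07) in the order of genotypes above. With each array centred on its median the Ccng1 change in KK-TAF3 sh-PIP4K2B cells was 0.47, below the fold limit. Ppm1d encodes the phosphatase WIP1, which removes phosphates from p53 and ATM. It changed by 0.43 ± 0.059, 0.42 ± 0.059 and 0.29 ± 0.059 (log2, SE), below the fold limit. Fbxw7, the substrate receptor of a ubiquitin ligase, changed by 0.11 to 0.19, not past the threshold, and its second row by -0.014 to 0.10.

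Of 6 genes of cell cycle arrest and mitosis, 4 rose in KK-TAF3 sh-PIP4K2B cells and 3 in each WT-TAF3 genotype. Btg2 signals were 10.59, 10.62 and 10.50 in KK-TAF3 sh-PIP4K2B cells, 10.33, 10.27 and 10.43 in WT-TAF3 sh-PIP4K2B cells and 10.20, 10.32 and 10.39 in WT-TAF3 shX cells after etoposide. Differentiated cells had 9.21, 9.25 and 9.10 in KK-TAF3 sh-PIP4K2B cells, 9.26, 9.32 and 9.29 in WT-TAF3 sh-PIP4K2B cells and 9.10, 9.06 and 9.12 in WT-TAF3 shX cells. The lowest etoposide array lay at least 0.94 above the highest differentiated array of its genotype, and the change was 1.38 (SE 0.069, adjusted p = 5.1e-11), 1.05 (SE 0.069, adjusted p = 1.61e-09) and 1.21 (SE 0.069, adjusted p = 3.2e-10) in KK-TAF3 sh-PIP4K2B, WT-TAF3 sh-PIP4K2B and WT-TAF3 shX cells. Gtse1, a microtubule-associated protein that moves p53 out of the nucleus in G2, had signals of 10.10, 10.10 and 9.91 in KK-TAF3 sh-PIP4K2B cells, 10.29, 10.24 and 10.14 in WT-TAF3 sh-PIP4K2B cells and 9.72, 9.69 and 9.52 in WT-TAF3 shX cells after etoposide. In differentiated cells Gtse1 stood at 9.09, 9.02 and 8.99 in KK-TAF3 sh-PIP4K2B cells, 9.18, 9.26 and 9.24 in WT-TAF3 sh-PIP4K2B cells and 9.08, 8.92 and 8.96 in WT-TAF3 shX cells. It rose by 1.002 (SE 0.076, adjusted p = 1.3e-08), 0.997 (SE 0.076, adjusted p = 1.22e-08) and 0.66 (SE 0.076, adjusted p = 2.96e-06) in that order. Psrc1, which binds microtubules of the spindle, rose by 1.001 (SE 0.073, adjusted p = 8.07e-09), 0.98 (SE 0.073, adjusted p = 1.03e-08) and 0.89 (SE 0.073, adjusted p = 3.87e-08), with every etoposide array above every differentiated array. Ckap2, another spindle protein, passed the threshold in KK-TAF3 sh-PIP4K2B cells with 0.68 (SE 0.084, adjusted p = 6.93e-06), and changed by 0.26 ± 0.084 and 0.27 ± 0.084 in the WT-TAF3 genotypes. The difference between the KK-TAF3 and WT-TAF3 responses with sh-PIP4K2B was 0.42 (SE 0.12, adjusted p = 0.379), so the responses were not shown to differ. The polo-like kinase genes Plk3, with changes of 0.39 to 0.42, and Plk2, with -0.23 to 0.066, were not past the threshold.

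Of 23 cell cycle genes that p53 is known to lower through p21, 1 fell in KK-TAF3 sh-PIP4K2B cells, beside 4.81% of all genes, 4 fell in WT-TAF3 sh-PIP4K2B cells, beside 6.30%, and 12 fell in WT-TAF3 shX cells, beside 2.92%. In each genotype 0 rose, also at an unadjusted p under 0.05 in limma. Their median change was -0.0024, -0.23 and -0.50 in the same order, and 11, 6 and 0 of the 23 changes were above 0. Their mean signal after etoposide was 10.12 to 10.16 on the KK-TAF3 sh-PIP4K2B arrays, 9.95 to 10.17 on the WT-TAF3 sh-PIP4K2B arrays and 9.49 to 9.61 on the WT-TAF3 shX arrays. In differentiated cells the corresponding ranges were 10.15 to 10.18 for KK-TAF3 sh-PIP4K2B, 10.27 to 10.36 for WT-TAF3 sh-PIP4K2B and 10.06 to 10.13 for WT-TAF3 shX. Mki67, a marker of cycling cells, changed by -0.48 ± 0.18, -0.86 ± 0.18 and -1.13 ± 0.18, and the last 2 passed the threshold. In the test of the depletion effect between treatments 1 of the 23 genes was higher, beside 1.95% of all genes, and 0 were lower, beside 2.07%. It was Plk1 at 0.55 (SE 0.12, adjusted p = 0.0195). The call was lost with centred arrays (0.41) and in 3 of 12 fits that left out 1 array (0.48 to 0.56). Those were the fits without differentiated replicate 1 or 2 or etoposide replicate 3 of WT-TAF3 shX cells.

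The 10 genes grouped here under mitochondrial apoptosis include genes of other functions, such as Phlda3, Zmat3 and Ei24. Of the 10, 4 rose and 1 fell in each genotype, and the set was not the same in all. Trp53inp1 signals were 12.15, 12.16 and 12.25 in KK-TAF3 sh-PIP4K2B cells, 12.13, 11.85 and 12.16 in WT-TAF3 sh-PIP4K2B cells and 12.08, 12.02 and 12.04 in WT-TAF3 shX cells after etoposide. They were 11.06, 11.01 and 11.01 in KK-TAF3 sh-PIP4K2B cells, 11.07, 11.11 and 11.07 in WT-TAF3 sh-PIP4K2B cells and 10.86, 10.87 and 10.78 in WT-TAF3 shX cells in differentiated cells. The treatments were at least 0.74 apart in every genotype, and the change was 1.16 (SE 0.073, adjusted p = 1.12e-09), 0.96 (SE 0.073, adjusted p = 1.18e-08) and 1.21 (SE 0.073, adjusted p = 7.33e-10). Aen, a nuclease that cuts DNA during apoptosis, stood at 9.67, 9.77 and 9.74 in KK-TAF3 sh-PIP4K2B cells, 9.78, 9.68 and 9.82 in WT-TAF3 sh-PIP4K2B cells and 9.69, 9.60 and 9.70 in WT-TAF3 shX cells after etoposide. In differentiated cells Aen stood at 9.03, 8.93 and 9.05 in KK-TAF3 sh-PIP4K2B cells, 9.01, 9.14 and 9.08 in WT-TAF3 sh-PIP4K2B cells and 8.79, 8.74 and 8.80 in WT-TAF3 shX cells. It rose by 0.72 (SE 0.064, adjusted p = 1.22e-07), 0.68 (SE 0.064, adjusted p = 2.13e-07) and 0.89 (SE 0.064, adjusted p = 8.44e-09), and the lowest differentiated values were those of WT-TAF3 shX cells. Bbc3, which encodes the BH3-only protein PUMA, changed by 0.65 ± 0.11, 0.59 ± 0.11 and 0.25 ± 0.11, past the threshold in the sh-PIP4K2B genotypes only, but the difference of the responses on depletion was 0.35 (SE 0.15, adjusted p = 0.129). Without replicate 2 of the etoposide-treated WT-TAF3 sh-PIP4K2B cells, whose Bbc3 signal of 9.59 was the highest, that change was 0.43 and below the fold limit. Ei24, an endoplasmic reticulum protein, changed by 0.51 ± 0.084, 0.24 ± 0.084 and 0.60 ± 0.084, and Phlda3, an inhibitor of AKT, by 0.46 ± 0.059, 0.56 ± 0.059 and 0.64 ± 0.059. Each was past the threshold in 2 genotypes. With arrays centred on their medians Ei24 in KK-TAF3 sh-PIP4K2B cells and Phlda3 in WT-TAF3 sh-PIP4K2B cells were both at 0.45, and without replicate 3 of the etoposide-treated KK-TAF3 sh-PIP4K2B cells Ei24 was at 0.41 there, all below the fold limit. Bbc3, Ei24 and Phlda3 were named after their values had been seen. Pmaip1, the gene of NOXA, changed by 0.41 ± 0.093, 0.34 ± 0.093 and 0.061 ± 0.093, below the fold limit. Apaf1, the scaffold of the apoptosome, Zmat3, an RNA-binding protein, and Perp, a membrane protein of desmosomes and apoptosis, were not past the threshold, with changes from -0.31 for Perp to 0.47 for Zmat3.

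Trp53i11, named for its induction by p53 in other cells, ran the other way. Its signals after etoposide were 8.83, 8.83 and 8.72 in KK-TAF3 sh-PIP4K2B cells, 8.32, 8.70 and 8.45 in WT-TAF3 sh-PIP4K2B cells and 8.47, 8.47 and 8.47 in WT-TAF3 shX cells. In differentiated cells they were 10.51, 10.44 and 10.59 in KK-TAF3 sh-PIP4K2B cells, 9.99, 10.01 and 9.97 in WT-TAF3 sh-PIP4K2B cells and 11.22, 11.10 and 11.05 in WT-TAF3 shX cells. Every etoposide array lay at least 1.27 below every differentiated array of its genotype, and differentiated WT-TAF3 shX cells were highest. The change was -1.72 (SE 0.082, adjusted p = 2.95e-11), -1.50 (SE 0.082, adjusted p = 1.58e-10) and -2.66 (SE 0.082, adjusted p = 9.57e-14), and the last was the largest change in size of any of the 38 genes.

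Of the 3 death receptor genes, Fas and Eda2r rose in at least 1 genotype. Fas, whose receptor starts apoptosis at the cell surface, had low signals throughout. They were 7.31, 7.54 and 7.47 in KK-TAF3 sh-PIP4K2B cells, 7.17, 7.23 and 7.07 in WT-TAF3 sh-PIP4K2B cells and 7.15, 7.08 and 7.38 in WT-TAF3 shX cells after etoposide. Differentiated cells had 6.54, 6.56 and 6.42 in KK-TAF3 sh-PIP4K2B cells, 6.71, 6.74 and 6.63 in WT-TAF3 sh-PIP4K2B cells and 6.86, 6.77 and 6.61 in WT-TAF3 shX cells. The arrays of each genotype were apart, and the change was 0.94 (SE 0.087, adjusted p = 2.19e-07) in KK-TAF3 sh-PIP4K2B cells, against 0.46 (SE 0.087, adjusted p = 0.000491) and 0.46 (SE 0.087, adjusted p = 0.00069) in the WT-TAF3 genotypes, which stayed below the fold limit. The difference between the KK-TAF3 and the WT-TAF3 response was 0.47 (SE 0.12, adjusted p = 0.292), not past the threshold. Eda2r, the receptor of ectodysplasin A2, stood at 10.998, 10.98 and 11.34 in KK-TAF3 sh-PIP4K2B cells, 11.01, 10.86 and 11.01 in WT-TAF3 sh-PIP4K2B cells and 10.97, 10.86 and 11.17 in WT-TAF3 shX cells after etoposide. In differentiated cells it stood at 10.36, 10.41 and 10.40 in KK-TAF3 sh-PIP4K2B cells, 10.56, 10.65 and 10.59 in WT-TAF3 sh-PIP4K2B cells and 10.09, 10.13 and 10.23 in WT-TAF3 shX cells. It changed by 0.71 (SE 0.093, adjusted p = 1.26e-05), 0.36 (SE 0.093, adjusted p = 0.0059) and 0.85 (SE 0.093, adjusted p = 1.62e-06), and the smaller change of WT-TAF3 sh-PIP4K2B cells went with the highest differentiated values. Tnfrsf10b, the mouse TRAIL receptor, changed by 0.33 ± 0.058, 0.24 ± 0.058 and 0.38 ± 0.058, below the fold limit.

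DNA repair and nucleotide supply contributed 1 gene that rose, Polk. Its signals were 10.32, 10.38 and 10.53 in KK-TAF3 sh-PIP4K2B cells, 10.43, 10.10 and 10.38 in WT-TAF3 sh-PIP4K2B cells and 10.20, 10.18 and 10.38 in WT-TAF3 shX cells after etoposide. In differentiated cells they were 9.56, 9.55 and 9.41 in KK-TAF3 sh-PIP4K2B cells, 9.33, 9.45 and 9.40 in WT-TAF3 sh-PIP4K2B cells and 9.16, 9.07 and 9.29 in WT-TAF3 shX cells. The treatments were at least 0.65 apart in every genotype, and the change was 0.90 (SE 0.092, adjusted p = 6.4e-07), 0.91 (SE 0.092, adjusted p = 4.86e-07) and 1.08 (SE 0.092, adjusted p = 6.59e-08). Xpc and Ddb2, which recognise damaged bases in nucleotide excision repair, changed by -0.21 to 0.11 and were not past the threshold. Rrm2b, the p53-inducible small subunit of ribonucleotide reductase, changed by -0.27 ± 0.083, -0.43 ± 0.083 and 0.23 ± 0.083, not past the threshold in any genotype, with signs that differed between genotypes.

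The stress and metabolism genes included both the largest increase and a fall in all 3 genotypes. Sesn2 signals were 11.56, 11.45 and 11.17 in KK-TAF3 sh-PIP4K2B cells, 11.43, 11.52 and 11.28 in WT-TAF3 sh-PIP4K2B cells and 11.18, 11.22 and 10.94 in WT-TAF3 shX cells after etoposide. Differentiated cells had Sesn2 signals of 9.79, 9.74 and 9.73 in KK-TAF3 sh-PIP4K2B cells, 9.70, 9.83 and 9.70 in WT-TAF3 sh-PIP4K2B cells and 9.40, 9.39 and 9.41 in WT-TAF3 shX cells. The etoposide and differentiated arrays were at least 1.38 apart, with changes of 1.64 (SE 0.095, adjusted p = 3.9e-10), 1.66 (SE 0.095, adjusted p = 2.6e-10) and 1.71 (SE 0.095, adjusted p = 2.11e-10), or 3.12-, 3.17- and 3.28-fold. Sesn1, the other sestrin of the list, is also an inhibitor of mTORC1 signalling. Its signals were 10.91, 11.01 and 11.10 in KK-TAF3 sh-PIP4K2B cells, 11.08, 10.70 and 11.09 in WT-TAF3 sh-PIP4K2B cells and 11.07, 10.94 and 11.10 in WT-TAF3 shX cells after etoposide. They were 11.83, 11.84 and 11.87 in KK-TAF3 sh-PIP4K2B cells, 11.70, 11.73 and 11.70 in WT-TAF3 sh-PIP4K2B cells and 11.54, 11.51 and 11.61 in WT-TAF3 shX cells in differentiated cells. It fell in all 3 genotypes, with changes of -0.84 (SE 0.088, adjusted p = 8.86e-07), -0.76 (SE 0.088, adjusted p = 2.61e-06) and -0.52 (SE 0.088, adjusted p = 0.000205). Without replicate 2 of the etoposide-treated WT-TAF3 shX cells the last change was -0.47, just under the fold limit. Sesn3, another sestrin gene outside the list, fell by -0.62 ± 0.099, -0.90 ± 0.099 and -0.83 ± 0.099, given as signed log2 changes. Dcxr reduces dicarbonyls and L-xylulose. Its signals were 10.84, 10.95 and 10.79 in KK-TAF3 sh-PIP4K2B cells, 10.62, 10.66 and 10.75 in WT-TAF3 sh-PIP4K2B cells and 10.46, 10.56 and 10.71 in WT-TAF3 shX cells after etoposide. Differentiated cells had 9.22, 9.22 and 9.28 in KK-TAF3 sh-PIP4K2B cells, 9.12, 9.26 and 9.22 in WT-TAF3 sh-PIP4K2B cells and 9.35, 9.40 and 9.35 in WT-TAF3 shX cells. It rose by 1.62 (SE 0.072, adjusted p = 1.01e-11), 1.47 (SE 0.072, adjusted p = 3.29e-11) and 1.21 (SE 0.072, adjusted p = 6.07e-10). The epoxide hydrolase gene Ephx1, the lipase gene Abhd4 and Ddit4l, an mTORC1 inhibitor, were not past the threshold, with changes of -0.020 to 0.35, although Ddit4, the near copy of Ddit4l, rose by 1.13 ± 0.067, 1.14 ± 0.067 and 1.36 ± 0.067.

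Of the 5 other genes, Rps27l, a ribosomal protein gene close in sequence to Rps27, changed by 0.55 ± 0.094, 0.43 ± 0.094 and 0.50 ± 0.094 and passed the threshold in KK-TAF3 sh-PIP4K2B and WT-TAF3 shX cells. In KK-TAF3 sh-PIP4K2B cells it was at 0.42 without replicate 3 of the etoposide-treated arrays, and in WT-TAF3 shX cells at 0.47 without differentiated replicate 1 and at 0.44 without etoposide replicate 3, each below the fold limit. Probes of Rps27l could take up signal of Rps27, which was not analysed here. Tap1, a peptide transporter of antigen presentation, stood at 8.09, 8.003 and 7.98 in KK-TAF3 sh-PIP4K2B cells, 7.85, 7.76 and 7.81 in WT-TAF3 sh-PIP4K2B cells and 7.92, 7.86 and 7.76 in WT-TAF3 shX cells after etoposide. In differentiated cells Tap1 stood at 7.39, 7.46 and 7.36 in KK-TAF3 sh-PIP4K2B cells, 7.43, 7.28 and 7.47 in WT-TAF3 sh-PIP4K2B cells and 7.59, 7.58 and 7.59 in WT-TAF3 shX cells. The change was 0.62 (SE 0.067, adjusted p = 1.16e-06), 0.41 (SE 0.067, adjusted p = 0.000102) and 0.26 (SE 0.067, adjusted p = 0.00719), past the threshold in KK-TAF3 sh-PIP4K2B cells, and the KK-TAF3 and WT-TAF3 responses differed by 0.21 (SE 0.094, adjusted p = 0.752), not past it. Sulf2, which trims sulfates from heparan sulfate outside the cell, changed by -0.42 (SE 0.14, adjusted p = 0.028), -0.70 (SE 0.14, adjusted p = 0.000619) and -0.75 (SE 0.14, adjusted p = 0.000405), and the WT-TAF3 genotypes passed, although with the array median as a covariate the WT-TAF3 sh-PIP4K2B change was -0.40 (adjusted p = 0.0558) and did not. Klhl26 changed by -0.015 to 0.10. Ano3 had low signals, and its kept row changed by -0.11 to 0.030. Its second row disagreed in KK-TAF3 sh-PIP4K2B cells, with a change of 0.56 (SE 0.14, adjusted p = 0.0133 over all transcript clusters).

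**Figure D3:**
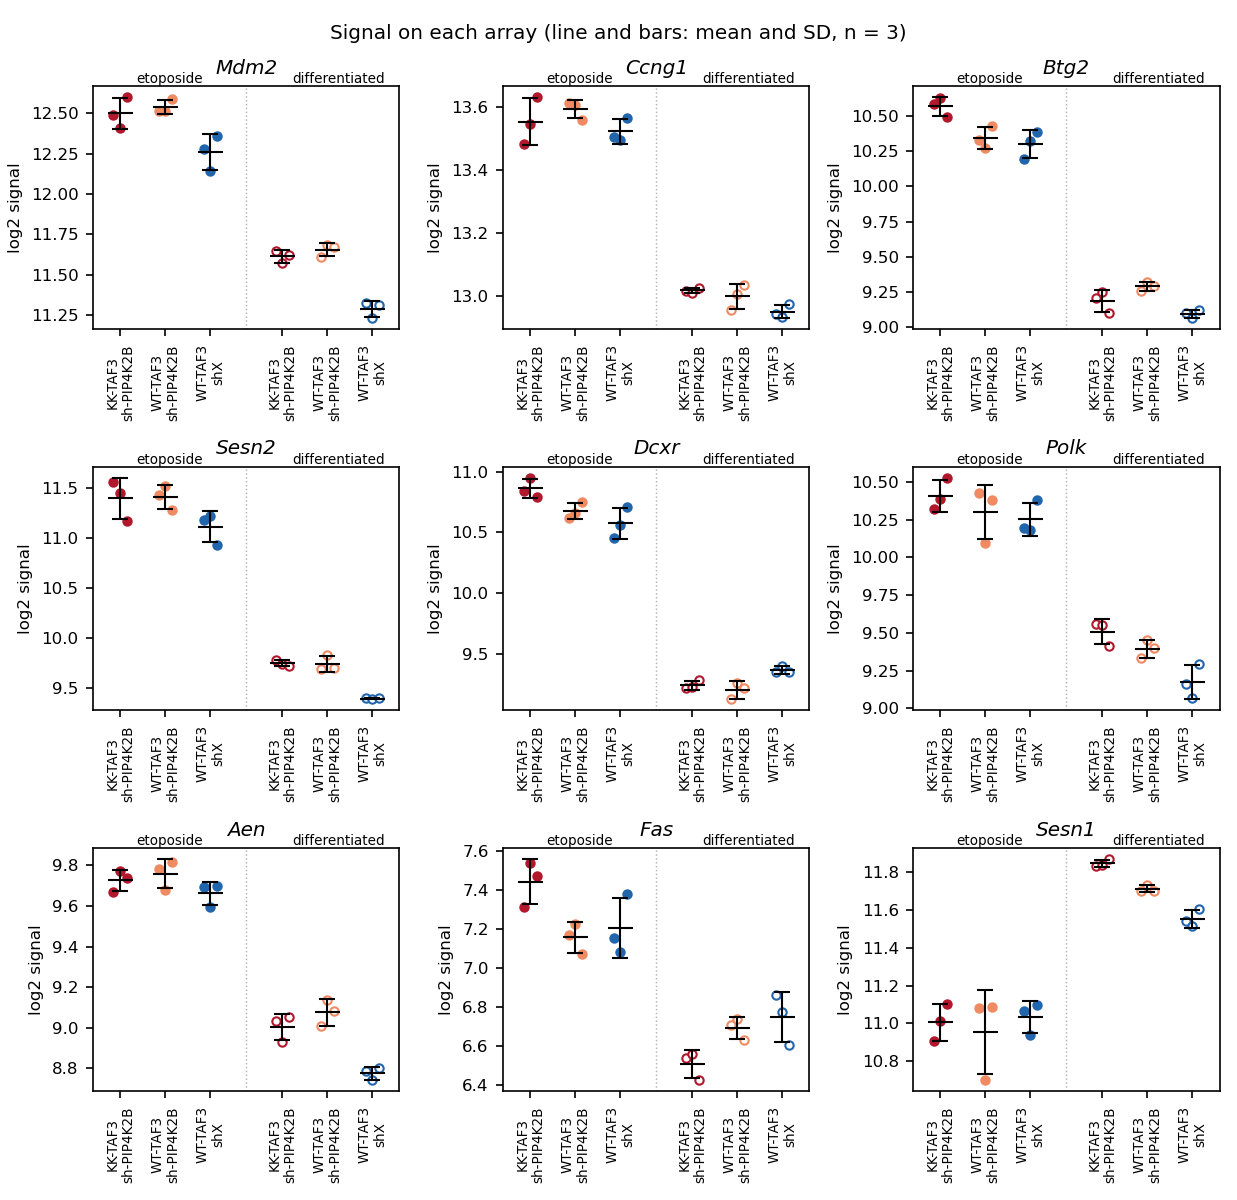
log2 signal on each array (points) with the group mean and SD (n = 3) for 9 p53 target genes, etoposide (filled) left of differentiated (open), in KK-TAF3 sh-PIP4K2B, WT-TAF3 sh-PIP4K2B and WT-TAF3 shX cells. The y axes do not start at 0 and differ between panels. In the first 8 panels every etoposide array lies above every differentiated array of its genotype, and the Sesn1 panel shows the reverse.

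Within a treatment few of these genes were past the threshold between genotypes. On depletion of PIP4K2B, that is sh-PIP4K2B against shX in WT-TAF3 cells, 0 of 38 genes rose and 1 fell among differentiated cells, beside 0.682% and 0.376% of all genes, and the counts at an unadjusted p were the same. After etoposide 1 rose and 0 fell, beside 0.321% and 0.547%. KK-TAF3 minus WT-TAF3, both with sh-PIP4K2B, gave 1 gene higher and 0 lower in differentiated cells, beside 0.301% and 0.216%, and 1 higher and 0 lower after etoposide, beside 0.341% and 0.0652%. The tests of whether an effect differed between treatments called 1 gene higher and 2 lower for depletion, beside 1.95% and 2.07%, and 0 and 0 for KK-TAF3, beside 0.135% and 0.0150%. With the p left unadjusted at 0.05 and the fold limit kept, the last counts were also 0 and 0 in limma. The changes that were not past the threshold lay between -0.39 and 0.47 on depletion in differentiated cells, between -0.30 and 0.39 on depletion after etoposide, and between -0.30 and 0.44 for KK-TAF3 in both treatments.

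The genotypes were also compared by whether their arrays overlapped. On depletion in differentiated cells 20 of 38 genes had every WT-TAF3 sh-PIP4K2B array above every WT-TAF3 shX array, beside 21.8% of all genes, and 9 had every one below, beside 22.7%. The median change of the 38 genes was 0.12, against -0.024 over all genes, and 26 of 38 were above 0. On depletion after etoposide the counts were 7 above, beside 6.93%, and 4 below, beside 8.02%. KK-TAF3 arrays were all above WT-TAF3 arrays for 6 genes in differentiated cells, beside 12.9%, and all below for 10, beside 8.07%. After etoposide these were 9, beside 6.89%, and 3, beside 3.90%.

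Without the fold limit, 7 of 38 genes had an adjusted p under 0.05 as higher on depletion in differentiated cells, beside 3.21% of all genes, and 2 as lower, beside 2.93%. The 7 had changes of 0.37 ± 0.069 for Mdm2, 0.40 ± 0.084 for Ckap2, 0.30 ± 0.064 for Aen, 0.30 ± 0.058 for Tnfrsf10b, 0.45 ± 0.093 for Eda2r, 0.47 ± 0.083 for Rrm2b and 0.34 ± 0.095 for Sesn2. Of these, Mdm2 and Ckap2 also had an adjusted p under 0.05 as higher on depletion after etoposide, where 3 genes did, beside 1.04%. For KK-TAF3 in differentiated cells 2 genes were higher at that limit, beside 0.572%.

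Trp53i11 was the gene that fell on depletion in differentiated cells, by a log2 change of -1.13 (SE 0.082, adjusted p = 1.86e-07). It was higher in KK-TAF3 than in WT-TAF3 cells with sh-PIP4K2B there, by 0.53 (SE 0.082, adjusted p = 0.00154). After etoposide the changes were 0.022 (SE 0.082, adjusted p = 0.909) on depletion and 0.30 (SE 0.082, adjusted p = 0.113) for KK-TAF3. The arrays given above for differentiated cells put WT-TAF3 shX cells highest, KK-TAF3 sh-PIP4K2B cells between and WT-TAF3 sh-PIP4K2B cells lowest, with no overlap of neighbours. The depletion effect after etoposide minus that in differentiated cells was 1.16 (SE 0.12, adjusted p = 2.29e-05). The muscle differentiation genes moved in the same arrays. On depletion in differentiated cells 5 of 12 rose, beside 0.682% of all genes, and 0 fell, beside 0.376%. For KK-TAF3 there, 0 of these 12 genes rose, beside 0.301%, and 8 fell, beside 0.216%. Their mean signal was 8.78 to 8.88 on differentiated KK-TAF3 sh-PIP4K2B arrays, 9.55 to 9.63 on WT-TAF3 sh-PIP4K2B arrays and 9.08 to 9.17 on WT-TAF3 shX arrays, and their part in the Trp53i11 result was not tested.

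Rrm2b and Eda2r were the genes whose depletion effect was lower after etoposide than in differentiated cells. Rrm2b signals were 9.26, 9.28 and 9.42 in KK-TAF3 sh-PIP4K2B cells, 9.16, 9.01 and 9.02 in WT-TAF3 sh-PIP4K2B cells and 9.21, 9.24 and 9.30 in WT-TAF3 shX cells after etoposide. In differentiated cells they were 9.69, 9.54 and 9.55 in KK-TAF3 sh-PIP4K2B cells, 9.39, 9.67 and 9.43 in WT-TAF3 sh-PIP4K2B cells and 8.90, 9.08 and 9.09 in WT-TAF3 shX cells. Depletion changed Rrm2b by -0.19 (SE 0.083, adjusted p = 0.264) after etoposide and by 0.47 (SE 0.083, adjusted p = 0.00332) in differentiated cells, neither past both limits, and the difference was -0.66 (SE 0.12, adjusted p = 0.00554). For Eda2r the depletion changes were -0.039 (SE 0.093, adjusted p = 0.848) and 0.45 (SE 0.093, adjusted p = 0.0103), and their difference was -0.49 (SE 0.13, adjusted p = 0.0396). The Eda2r difference was not past the threshold in 8 of 12 fits that left out 1 array, with values from -0.51 to -0.40. With the array median added as a covariate, neither gene passed, at -0.54 (adjusted p = 0.122) for Rrm2b and -0.52 (adjusted p = 0.275) for Eda2r. Centring each array on its median moves all changes on depletion in differentiated cells by 0.097 and in the test of the difference by -0.14. Under it Ckap2, Eda2r and Rrm2b were past the threshold as higher on depletion in differentiated cells, and the share of all genes under centring is not given.

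Gtse1 was the gene that rose on depletion after etoposide, by 0.58 (SE 0.076, adjusted p = 0.000157), with all 3 WT-TAF3 sh-PIP4K2B arrays above all 3 WT-TAF3 shX arrays given above. In differentiated cells its depletion change was 0.24 (SE 0.076, adjusted p = 0.0649), and the difference of these effects was 0.34 (SE 0.11, adjusted p = 0.0564), not past the threshold. Ckap2 and Mdm2 had changes of 0.39 (SE 0.084, adjusted p = 0.0127) and 0.28 (SE 0.069, adjusted p = 0.033) after etoposide, below 1.4-fold. The cell cycle genes rose in the same contrast: 13 of 23 were higher, beside 0.321% of all genes, and 0 lower, beside 0.547%. Their median change was 0.52, and among them were Plk1 at 0.67 ± 0.085, Kif20a at 0.72 ± 0.058 and Ccna2 at 0.59 ± 0.065. Gtse1 is itself transcribed in G2, and the part of cell cycle position in its change was not tested.

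Pmaip1 was the gene that was higher in KK-TAF3 than in WT-TAF3 cells after etoposide. NOXA, its product, neutralises the survival protein MCL1. The log2 signals were 8.09, 8.33 and 8.22 in KK-TAF3 sh-PIP4K2B cells, 7.73, 7.65 and 7.73 in WT-TAF3 sh-PIP4K2B cells and 7.55, 7.73 and 7.69 in WT-TAF3 shX cells after etoposide. In differentiated cells Pmaip1 stood at 7.75, 7.91 and 7.74 in KK-TAF3 sh-PIP4K2B cells, 7.37, 7.33 and 7.40 in WT-TAF3 sh-PIP4K2B cells and 7.41, 7.83 and 7.54 in WT-TAF3 shX cells. The KK-TAF3 minus WT-TAF3 difference with sh-PIP4K2B was 0.51 (SE 0.093, adjusted p = 0.00963) after etoposide and 0.44 (SE 0.093, adjusted p = 0.0248) in differentiated cells, the second below 1.4-fold, and the arrays of both genotypes were apart in each treatment. The difference of these effects was 0.076 (SE 0.13, adjusted p = 0.902). The etoposide call was lost in the fit of those 2 groups alone (adjusted p = 0.12), without replicate 2 of the etoposide-treated WT-TAF3 sh-PIP4K2B cells (0.49, adjusted p = 0.0593) and without replicate 2 of the etoposide-treated KK-TAF3 sh-PIP4K2B cells (0.45, adjusted p = 0.0663).

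**Figure D4:**
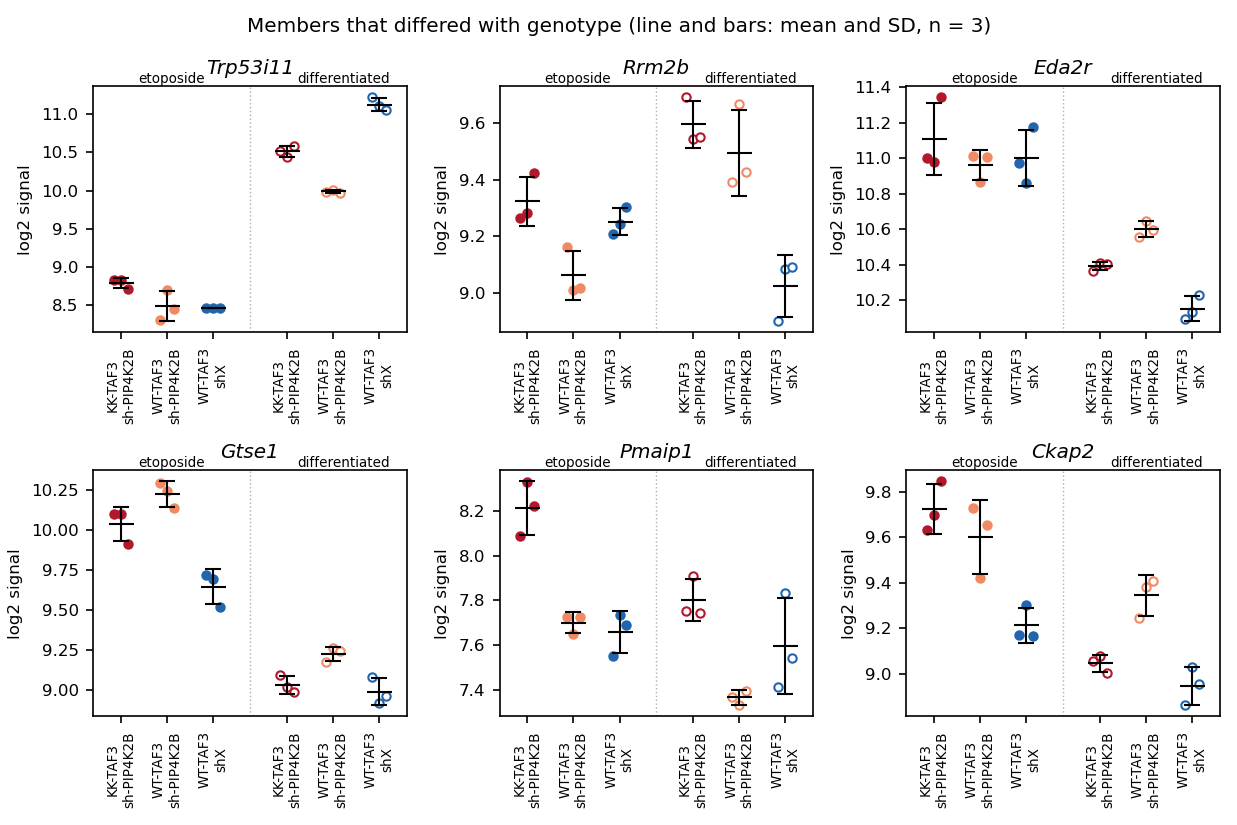
log2 signal on each array (points) with the group mean and SD (n = 3) for Trp53i11, Rrm2b, Eda2r, Gtse1, Pmaip1 and Ckap2, etoposide (filled) left of differentiated (open). The y axes do not start at 0 and differ between panels. Differentiated Trp53i11 signals lie at 11.05 to 11.22 in WT-TAF3 shX cells and at 9.97 to 10.01 in WT-TAF3 sh-PIP4K2B cells, while the 9 etoposide arrays lie between 8.32 and 8.83.

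Other genes of the pathway gave a mixed picture. Of 26 further p53 targets, 6 rose and 3 fell on etoposide in KK-TAF3 sh-PIP4K2B cells, beside 3.52% and 4.81% of all genes. In WT-TAF3 sh-PIP4K2B cells 5 rose and 3 fell, beside 3.64% and 6.30%. In WT-TAF3 shX cells 5 rose and 2 fell, beside 4.71% and 2.92%. The medians were 0.080, 0.068 and 0.051, against 0.032, 0.066 and -0.052 over all genes. Slc19a2, a thiamine transporter, changed by 1.59 ± 0.077, 1.47 ± 0.077 and 1.56 ± 0.077, and Pidd1, which assembles a caspase platform, by 1.68 ± 0.074, 1.54 ± 0.074 and 1.19 ± 0.074. The phosphatase gene Ptprv changed by 1.57 ± 0.13, 1.43 ± 0.13 and 1.25 ± 0.13. Gadd45a, a stress sensor that binds PCNA, fell, with changes of -0.75 ± 0.075, -0.98 ± 0.075 and -0.80 ± 0.075. Within a treatment, 0 of the 26 were past the threshold between genotypes in limma, and 0 were with the p left unadjusted at 0.05 and the fold limit kept. Of 29 regulators of p53, 0 rose and 2 fell in KK-TAF3 sh-PIP4K2B cells. In WT-TAF3 sh-PIP4K2B cells 1 rose and 4 fell, with changes from -0.71 to 0.76 over the 29. The genes at the ends of this range are not named here. In WT-TAF3 shX cells 0 rose and 1 fell. The shares of all genes are those given for the 26 targets. Hipk2, a kinase that phosphorylates p53, changed by -0.72 ± 0.2, -0.35 ± 0.2 and -0.57 ± 0.2, with the first and last past the threshold. The first call was lost without etoposide replicate 3 of KK-TAF3 sh-PIP4K2B cells (-0.50), and the last in 5 of 6 fits that left out 1 array (-0.64 to -0.31), all but that without etoposide replicate 1. Atm changed by -0.36 ± 0.14, -0.56 ± 0.14 and -0.31 ± 0.14, with the second past the threshold. Mdm4, the close relative of Mdm2, changed by 0.035 ± 0.087, -0.15 ± 0.087 and 0.37 ± 0.087. Mdm4 passed the threshold as lower in the test of the depletion effect between treatments, at -0.52 (SE 0.12, adjusted p = 0.0255), and not in 5 of 12 fits that left out 1 array (-0.52 to -0.44), nor with all transcript clusters or the array median as a covariate. Of the 7 measured near copies of listed genes, Ddit4 rose and Sesn3 fell in all 3 genotypes.

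**Figure D5:**
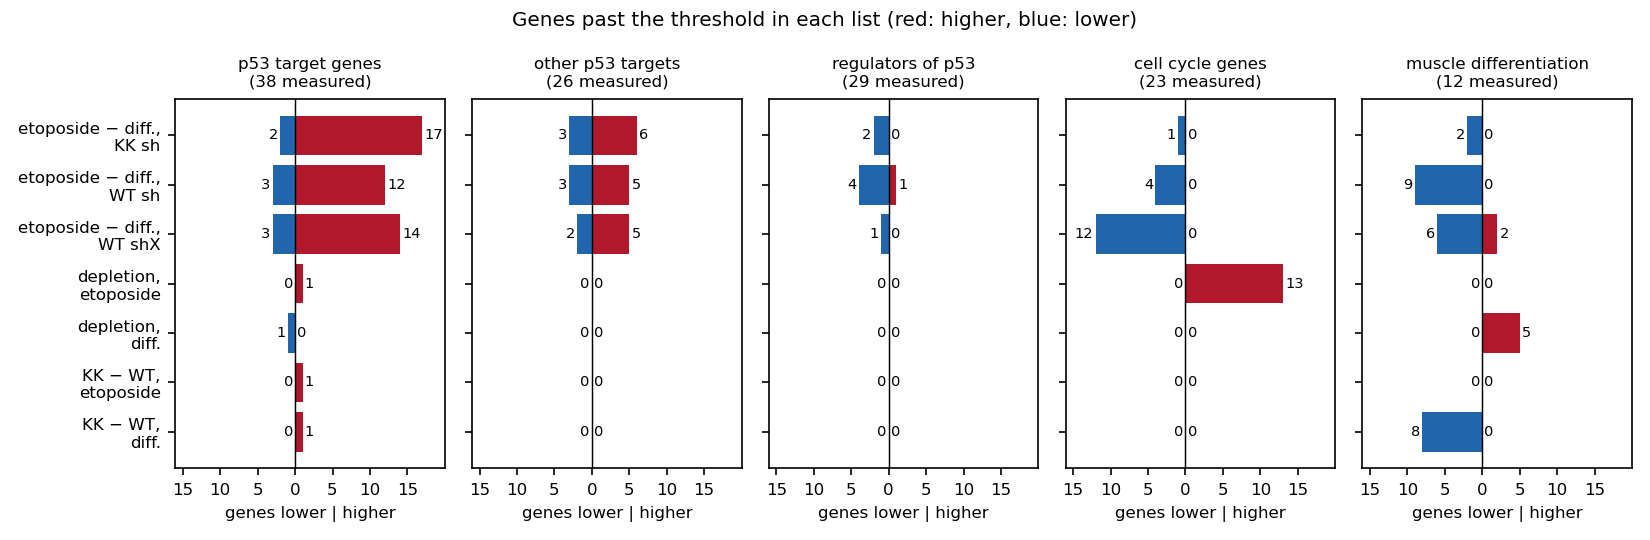
Number of genes past the threshold as lower (left) or higher (right) in 7 contrasts for the p53 target genes and 4 further lists. The p53 target genes show 12 to 17 rises on etoposide and at most 1 gene in each contrast between genotypes. On depletion after etoposide 13 of 23 cell cycle genes rose, beside 0.321% of all genes.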

How the data were processed

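RNA of C2C12 cells was labelled with the Ambion WT Expression Kit and hybridised to Affymetrix mouse gene arrays, 18 arrays in 6 groups of 3. The authors deposited log2 values made by RMA in Affymetrix Expression Console, version not given in the sources used here: background correction, quantile normalization and a summary per transcript cluster. These values were used as deposited. The table has 35556 rows, of which 21789 carry 1 gene symbol, 1621 several and 12146 none in the annotation used. That annotation is of an earlier chip than the one the methods name, so gene names rest on it. The brightest row was kept for each gene, which gave 19938 genes.

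Differences were fitted with limma 3.58.1 in R 4.3.3, in 1 model of 6 group means with moderated variances (12 residual and 6.05 prior degrees of freedom) and Benjamini-Hochberg adjustment over all genes. The threshold was an adjusted p under 0.05 and a change above 1.4-fold, after the limits the methods state without naming a test. Intervals are 95%. On simulated data for etoposide in WT-TAF3 shX cells, 45 of 50 planted changes of 0.6 and 50 of 50 at each of 1, 2 and 3 were recovered. Among those of the 19938 genes that had no planted change, 1 was called. The simulated noise was normal, independent and equally spread in all groups, while the median SD of the real groups ran from 0.0694 to 0.137. The simulation therefore does not give the rate of false calls in the real data. The methods call the arrays biological triplicates; with 3 a group, their number limits the precision. Depth does not apply to arrays. The genes and lists were chosen with earlier results of these data known. Per contrast, up to 3 listed genes of each role with the largest change past the threshold got full statistics, every listed gene past it between genotypes was named, and up to 4 genes of each other list. Replicate numbers paired the arrays in 1 contrast, PIP4K2B depletion after etoposide, where deviations of same-numbered arrays correlated with r from 0.33 to 0.56 in 3 pairs; the pairing comes from these data, not from the labels. As alternatives, the p was left unadjusted, the fold limit dropped, only the groups compared fitted, the prior trended and made robust, the test run on genes over the median signal or on all transcript clusters, the rows of a gene averaged, arrays centred on their medians or quantile-normalized within each treatment, the array median taken as a covariate, the replicate number taken as a block, and each array left out in turn; the block within the 2 groups of that contrast was added after seeing the data. Promoter windows were read from RefSeq with Python 3.11.15 and pandas 2.3.3, and figures drawn with matplotlib 3.10.9.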

Additional observations from a re-analysis of the deposited data

Results flagged for a closer look

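For 3 of the p53 target genes the effect of PIP4K2B depletion differed between the treatments in a test of the difference itself. The depletion effect after etoposide minus that in differentiated cells was 1.16 (SE 0.12, adjusted p = 2.29e-05) for Trp53i11, -0.66 (SE 0.12, adjusted p = 0.00554) for Rrm2b and -0.49 (SE 0.13, adjusted p = 0.0396) for Eda2r, on the log2 scale with limma over all genes. These were 1 higher and 2 lower of 38 genes (2.63% and 5.26%), beside 1.95% and 2.07% of all genes. With the array median as a covariate neither Rrm2b nor Eda2r passed, and Eda2r was also not past the threshold with every transcript cluster and in 8 of 12 fits that left out 1 array. Groups of 3 arrays are too small for a test of single outlying arrays.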

How the results depend on the processing

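Of 58 changes of p53 target genes past the threshold, 0 turned direction under the alternatives run and 11 lost the threshold under at least 1. Of 32 such changes of the other genes named except Atm, 0 turned and 5 lost it. The 5 were those of Hipk2 in KK-TAF3 sh-PIP4K2B and WT-TAF3 shX cells, Mki67 in WT-TAF3 sh-PIP4K2B cells, and Mdm4 and Plk1 in the test of depletion between treatments. The recomputation for these other genes was added after seeing the data, and it did not include Atm. Centring each array also put the etoposide change of Bbc3 with WT-TAF3 and sh-PIP4K2B at 0.48, and the array median as a covariate put it at 0.36. With no fold limit, 23 p53 target genes rose and 6 fell on etoposide in KK-TAF3 sh-PIP4K2B cells, 24 and 5 in WT-TAF3 sh-PIP4K2B cells and 23 and 4 in WT-TAF3 shX cells, and the shares of all genes at that limit are given above. Depletion then raised 7 and lowered 2 in differentiated cells and raised 3 after etoposide, and 2 were higher in differentiated KK-TAF3 cells. Centring each array on its median gave 3 higher on depletion in differentiated cells, and the array median as a covariate gave 2 lower there. No share of all genes is given for centring, the covariate, every transcript cluster, only the groups compared, genes above the median signal or left-out arrays. The counts of p53 target genes at these settings therefore cannot be set beside such a share. The genes lower in the test of depletion between treatments numbered 1 with every transcript cluster and 0 with the array median as a covariate. The gene higher in KK-TAF3 cells after etoposide was lost (0) in the fit of only the groups compared and among genes above the median signal, where Pmaip1 was not tested. Leaving out each array in turn gave 0 to 2 higher in that contrast, 0 to 2 higher and 1 to 2 lower on depletion in differentiated cells, and 1 to 2 lower in the test of depletion between treatments. The genes that rose on etoposide then numbered 15 to 17 in KK-TAF3 sh-PIP4K2B, 11 to 13 in WT-TAF3 sh-PIP4K2B and 14 to 15 in WT-TAF3 shX cells. The cause was not tested, except that a removed fold limit admits smaller changes by construction. The replicate block, over all groups and within the pair of groups compared, changed no count of p53 target genes: 14 rose and 3 fell on etoposide in WT-TAF3 shX cells, and 1 rose on depletion after etoposide. Over all genes the block within that pair of groups gave 64 higher and 120 lower, against 64 and 109 without it. Signal over background limits the dim genes, Ano3, Fas and Perp among them, and no detection call was used.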
